A study of Homo sapiens with 6 samples.

Results

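The cytosolic ribosomal proteins are the protein subunits of the ribosome that works in the cytoplasm. Their genes were taken by symbol: protein-coding genes named RPL or RPS followed by a number and an optional letter or L suffix, together with RPSA and RPLP0 to RPLP2, on any chromosome except Y. This gave 85 of the 58735 genes in the table, of which 46 are main genes of the large (60S) subunit, 31 are main genes of the small (40S) subunit and 8 are paralogues, which are copies that resemble a main gene and in many tissues are expressed less. The cells came from Ff-I01s01, a human induced pluripotent stem cell line labelled wild type, and had been differentiated to the pancreatic progenitor stage. Control cultures passed through the step named S3 from day 6 to day 8 without K-3 (n = 3 libraries), and treated cultures received K-3 at 2 µM over the same days (n = 3). K-3 is a code name, and all 6 libraries come from this 1 line. The study asked how K-3 affects the differentiation of these cells.

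The ribosome translates messenger RNA into protein: the small subunit reads the codons and the large subunit joins the amino acids. Each ribosome holds 1 copy of most ribosomal proteins, so their genes are expressed at high and similar levels and tend to be regulated together. Most of their messenger RNAs begin with a C followed by a run of C and T, the terminal oligopyrimidine (TOP) motif, through which the mTORC1 kinase and the RNA-binding protein LARP1 control their translation.

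The transcription starts of 68 of the 85 genes matched RefSeq's promoter table (GRCh38.p14), with 84 starts in all. By the rule of a C at the first transcribed base and at least 4 further C or T in a row, 47 of the 68 genes (69.1%) had such a start, against 644 of 8923 other tested protein-coding genes (7.22%). Among genes with a single start these shares were 71.9% of 57 and 5.30% of 6308. The first base was C at 63.1% of the ribosomal protein starts and at 11.7% of the others. The windows printed here run from 10 bases before the start to 20 bases from it, so the 11th letter is the first transcribed base, and capitals mark the run of C and T that begins there. The first set holds RPLP1 (chr15:69452808-69452837, plus strand), RPS6 (chr9:19380217-19380246, minus), RPS24 (chr10:78033853-78033882, plus), RPL24 (chr3:101686699-101686728, minus), RPL35 (chr9:124861938-124861967, minus) and RPL39 (chrX:119791611-119791640, minus), shown because they include the markers of the group, genes with large fold changes and, in RPL39, the longest run, 19 bases.
RPLP1: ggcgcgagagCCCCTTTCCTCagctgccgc
RPS6: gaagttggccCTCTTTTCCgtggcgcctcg
RPS24: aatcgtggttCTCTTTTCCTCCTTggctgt
RPL24: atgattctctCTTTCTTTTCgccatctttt
RPL35: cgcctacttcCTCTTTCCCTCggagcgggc
RPL39: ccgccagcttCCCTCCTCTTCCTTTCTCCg

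**Figure D1:**
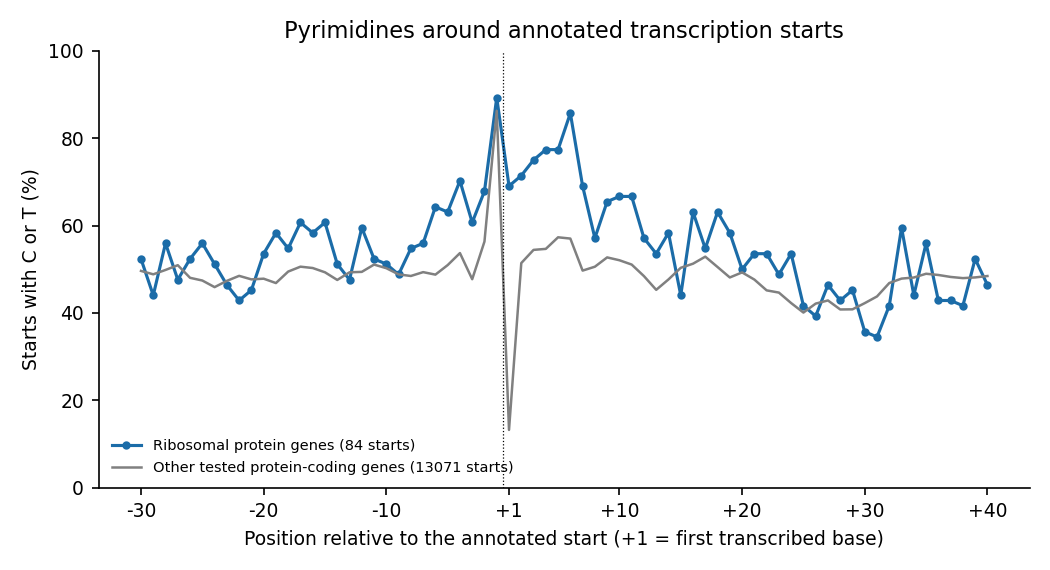
Percentage of annotated starts with C or T (y axis) at each position relative to the first transcribed base (x axis, +1), for 84 starts of ribosomal protein genes (points) and 13071 starts of other tested protein-coding genes (grey line). The other genes drop at +1, where 11.7% have a C, while the ribosomal protein genes stay high over the first bases.

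The second set pairs a main gene with its paralogue, and shows that in these pairs only the main gene met the rule, except RPL22L1. The pairs are RPL22 (chr1:6199576-6199605, minus) with RPL22L1 (chr3:170870176-170870205, minus), RPS27 (chr1:153990752-153990781, plus) with RPS27L (chr15:63157458-63157487, minus), RPL36A (chrX:101391001-101391030, plus) with RPL36AL (chr14:49620607-49620636, minus), and RPL26 (chr17:8383174-8383203, minus) with the first of 2 starts of RPL26L1 (chr5:172958719-172958748, plus).
RPL22: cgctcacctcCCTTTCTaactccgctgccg
RPL22L1: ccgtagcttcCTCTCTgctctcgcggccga
RPS27: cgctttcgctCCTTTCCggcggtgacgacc
RPS27L: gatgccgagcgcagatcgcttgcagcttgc
RPL36A: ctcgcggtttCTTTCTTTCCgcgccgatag
RPL36AL: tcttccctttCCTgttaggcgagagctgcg
RPL26: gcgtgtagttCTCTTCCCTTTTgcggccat
RPL26L1: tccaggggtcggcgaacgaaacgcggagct

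The annotated start of RPS26 (chr12:56041908-56041937, plus), a small subunit protein that contacts messenger RNA, begins with G, and that of RPS15 (chr19:1438386-1438415, plus) with a C that no pyrimidine follows. Both are shown because only RPS27A had a smaller p among the members in the comparison.
RPS26: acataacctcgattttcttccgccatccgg
RPS15: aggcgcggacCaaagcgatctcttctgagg

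From 250 bases before each start to 50 after it, the letters CCGGAA, a core to which ETS factors such as GABPA bind, were found on either strand in 57.4% of the 68 genes and in 36.0% of the other tested protein-coding genes. CTCTTTC was found in 25% and 9.17%, AAGATGG in 13.2% and 9.68%, and TATAAA in 10.3% and 7.48%. A match of letters describes the window and shows no binding. The genes lie on 21 chromosomes, with 12 on chromosome 19 and 9 on chromosome 3, and 60 small nucleolar RNA genes, which guide the modification of ribosomal RNA, lie inside 28 of them.

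The libraries held 35334645 to 38773637 fragments assigned to genes in Control and 41839266 to 50199369 with K-3, so every K-3 library was deeper. Values are the authors' FPKM, fragment counts divided by gene length and by a size factor of the library. Fragments are PCR copies without molecular identifiers, so counting limits cover counting error only. Whether the replicates are separate differentiations is not said in the labels, so the p-values only reflect how far replicate libraries differ, possibly for technical reasons. The labelled cell type was checked with 10 pancreatic progenitor markers, of which 8 had a mean of at least 1 FPKM and NKX6-1 was at 0 in every library. Their summed level was 402 to 438 FPKM in Control and 466 to 486 FPKM with K-3. The sum of 7 liver markers was 2798 to 3104 FPKM and 2678 to 2834 FPKM, that of 7 pluripotency markers 363 to 398 FPKM and 363 to 369 FPKM, and that of 5 intestinal markers, with FABP2 at 0, 33.6 to 38.9 FPKM and 39.5 to 41.5 FPKM. Of 15 genes of the G2/M phase of the cell cycle, all 15 had a positive fold change with K-3. Of these, 13 were higher at an adjusted p under 0.05 (limma), where 1.17% of all tested genes were. The part of these shifts in the ribosomal protein values was not tested.

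Ribosomal protein genes took 6.35%, 6.02% and 5.85% of all assigned fragments in Control and 6.61%, 6.58% and 6.70% with K-3. Every K-3 library was above every Control library, and Control replicate 1 was the nearest to them. In bulk RNA, a change in the share of cells of a type and a change of RNA per cell cannot be told apart. Fragments of genes encoded in mitochondrial DNA, which share the same total, took 1.64%, 1.78% and 1.76% in Control and 1.74%, 1.35% and 0.991% with K-3. With each library rescaled to the same FPKM sum over all genes except the mitochondrial-encoded ones, 76 of 81 tested members still had a positive fold change and the median log2 fold change of the members was 0.09, against 0.12 as deposited.

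Large and small subunit genes were expressed at much the same level. The median over genes of the 6-library mean was 210.5 FPKM for the 46 large subunit genes and 215.6 FPKM for the 31 small subunit genes, and 7.20 FPKM for the 8 paralogues. Of the 85 genes, 63 had a mean of at least 100 FPKM and 73 of at least 20 FPKM. The summed FPKM of the large subunit, divided by that of the small subunit, was 1.44, 1.45 and 1.46 in Control and 1.45, 1.45 and 1.43 with K-3. The ratio of the subunits thus overlapped between the groups.

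RPL41, whose product is a very short basic peptide of the large subunit, was the highest member by FPKM. Its level was 924, 858 and 827 FPKM in Control and 1024, 976 and 969 FPKM with K-3. All 3 K-3 values lay above all Control values. The next large subunit genes were RPL13A (911 FPKM over the 6 libraries), which also acts outside the ribosome in the interferon-responsive GAIT complex, RPL7A (773 FPKM), RPL3 (669 FPKM) and RPL8 (650 FPKM), both of the last near the peptidyl transferase centre. High small subunit genes were RPS2 (927 FPKM), near the entry of the messenger RNA channel, RPS12 (675 FPKM), RPS18 (655 FPKM) and RPS3A (571 FPKM). RPL41, RPS2 and RPL13A did not differ beyond their spread: RPS2 was at 884 ± 74 FPKM and RPL13A at 873 ± 66 FPKM in Control, against 870 ± 50 FPKM for RPL41 (SD, n = 3).

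**Figure D2:**
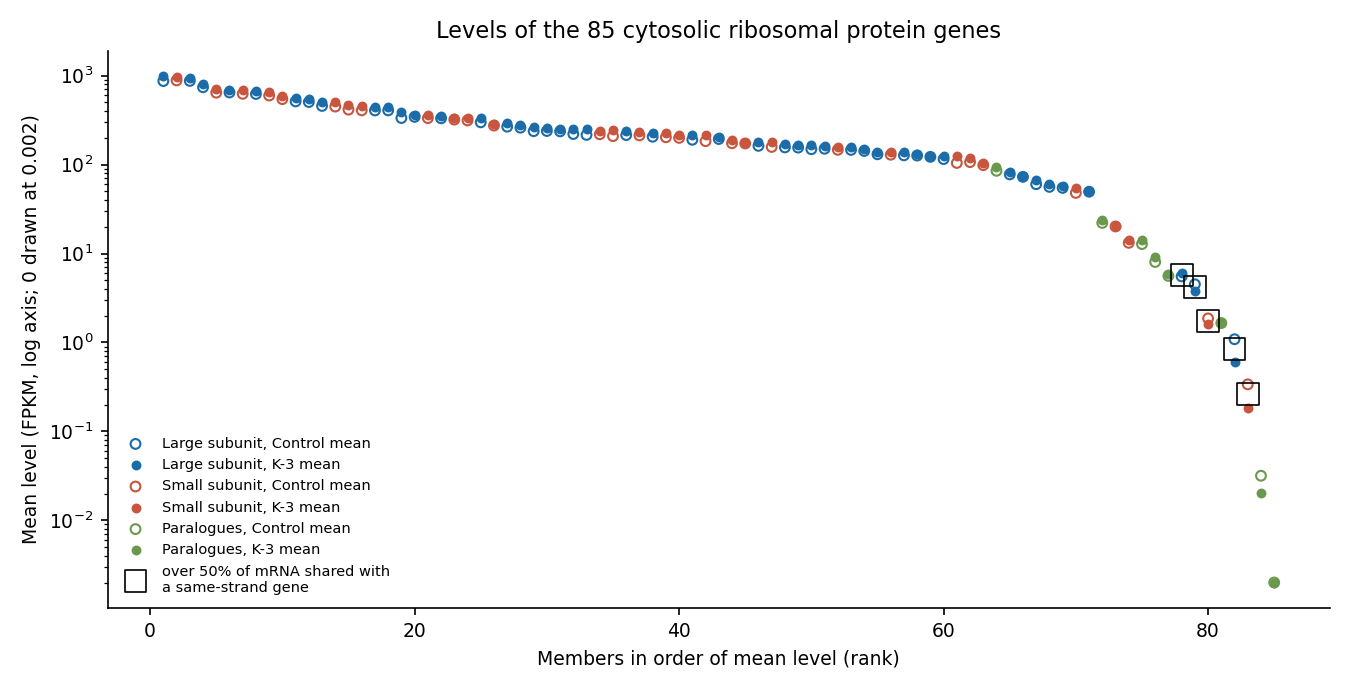
Mean level in Control (open) and K-3 (filled) of the 85 genes, in FPKM on a log axis, in order of their mean over the 6 libraries; 0 is drawn at 0.002. The level falls slowly to the 71st gene, RPL22 at 50.1 FPKM, and then steeply, and squares mark the 5 genes with more than 50% of their messenger RNA shared with a gene on the same strand.

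The order by FPKM rests on the gene lengths the authors used. These cover the exons of every annotated transcript and were a median of 3.23 times the length of the principal messenger RNA (2982 against 796 bases, medians over the members). The largest gap was RPS29, a small subunit protein of the zinc finger type, with 9845 bases of exon and a messenger RNA of 296 bases. RPS29 ranked 74th with 13.7 FPKM, and per kilobase of its messenger RNA the same fragments give 454 on that scale. The top of the order changes as well. Per kilobase of messenger RNA, RPS2 (2270) and RPL3 (2220) stood above RPL41 (2157). The ratio of 1 gene between groups does not depend on its length, but the minimum of 1 FPKM and the log2(FPKM + 1) scale do for genes of low FPKM.

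No ribosomal protein gene passed the threshold for K-3 against Control, but nearly all moved slightly upward. A mean of at least 1 FPKM was reached by 81 of the 85 members, and these were tested. Of the 81, 0 were higher and 0 lower at an adjusted p under 0.05 (limma over 12968 genes, Benjamini-Hochberg), where 1.17% of all tested genes were higher and 0.910% lower. Before adjustment, p was under 0.05 for 17 members with higher and 1 with lower values, against 11.7% and 10.4% of all tested genes. The smallest adjusted p was 0.0988, for RPS27A. A positive log2 fold change was found for 79 of the 81 members (97.5%), against 54.6% of all tested genes. For 28 members (34.6%) all K-3 values lay above all Control values, against 15.4% of all tested genes, and for 2 they lay below, against 12.0%.

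The medians of the subunits were close to each other. The median log2 fold change was 0.12 for 45 large subunit genes, 0.13 for 30 small subunit genes and 0.11 for 6 paralogues, beside 0.01 for all tested genes. Positive values were found for 44 of the large subunit genes, 29 of the small subunit genes and 6 of the paralogues. All 73 members with a mean of at least 20 FPKM had positive values, from 0.02 to 0.24, but the rescaling without mitochondrial-encoded genes, which moved the median of all tested genes from 0.01 to -0.01, took the lowest of them, RPS21, RPL34 and RPL30, below 0. The 95% interval of a member's log2 fold change reached a median of 0.15 to either side, more than the median shift, and included 0 for 63 of the 81.

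**Figure D3:**
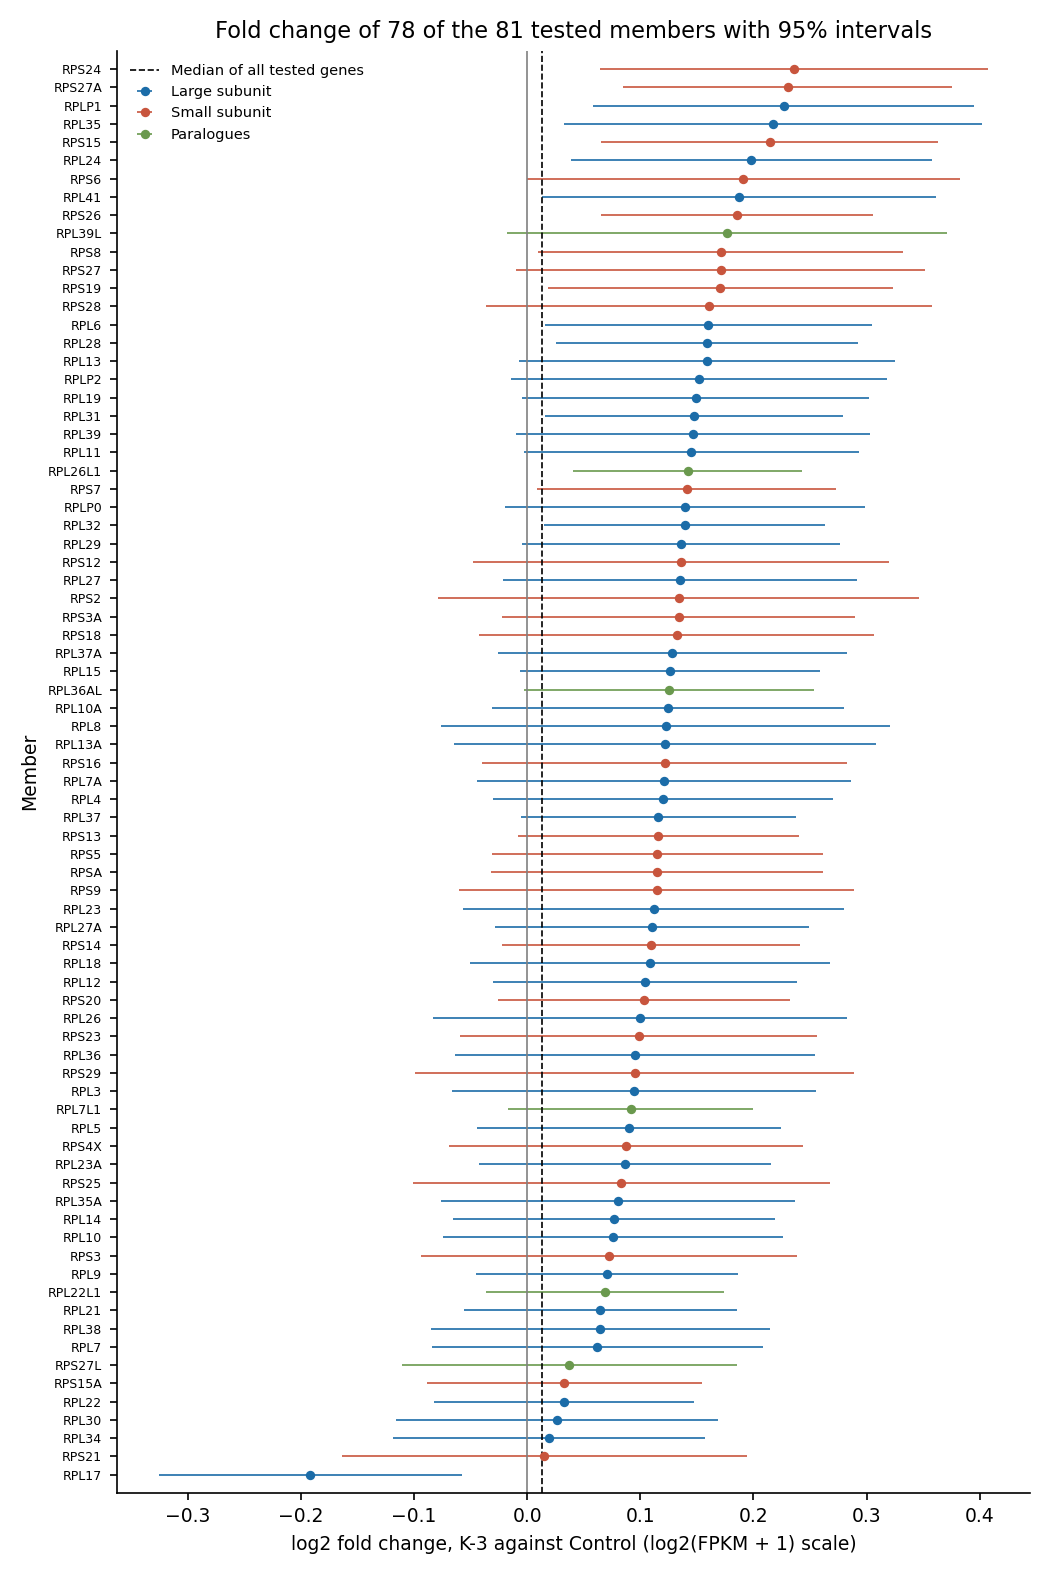
Log2 fold change of 78 of the 81 tested members, K-3 against Control, on the log2(FPKM + 1) scale, with 95% intervals from limma; the dashed line is the median of all tested genes (0.01). The points crowd between 0.02 and 0.24, and RPL17 lies below 0.

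Among the P-stalk genes, which recruit the translation factors that hydrolyse GTP to the large subunit, RPLP1 had 233, 207 and 207 FPKM in Control and 240, 248 and 270 FPKM with K-3. The K-3 values were all higher, although Control replicate 1 came close. The log2 fold change was 0.23 ± 0.07 (SE; limma adjusted p = 0.135). Its partner RPLP2 had 0.15 ± 0.07, RPLP0, the base to which they attach, 0.14 ± 0.07, and RPL12, which lies beside that base, 0.10 ± 0.06, with adjusted p from 0.265 to 0.331. RPL5 and RPL11, which bind 5S ribosomal RNA and, when free, the p53 inhibitor MDM2, had 0.09 ± 0.06 and 0.15 ± 0.06.

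RPL35, at the exit of the nascent chain tunnel, had 369, 322 and 311 FPKM in Control and 374, 383 and 405 FPKM with K-3. The groups did not overlap, and Control replicate 1 was close to the lowest K-3 library. The log2 fold change was 0.22 ± 0.08 (SE; limma adjusted p = 0.172). RPL24, which forms a bridge to the small subunit, had 237, 214 and 211 FPKM in Control and 265, 257 and 238 FPKM with K-3. The highest Control library and the lowest K-3 library were nearly equal, and the log2 fold change was 0.20 ± 0.07 (adjusted p = 0.156). RPL41 and RPL28 had 0.19 and 0.16, each with all K-3 values above Control and neither past the threshold.

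In the small subunit, RPS27A, made as a fusion of ubiquitin with a ribosomal protein, had the smallest p of all members. Its level was 192, 183 and 175 FPKM in Control and 228, 213 and 205 FPKM with K-3. The groups were apart, with a log2 fold change of 0.23 ± 0.06 (SE; limma adjusted p = 0.0988). RPS24 had 110, 102 and 102 FPKM in Control and 134, 124 and 112 FPKM with K-3, the largest fold change of the members at 0.24 ± 0.07 (adjusted p = 0.129). The K-3 libraries spread widely, replicate 3 being close to Control replicate 1. RPS26 had 165, 156 and 154 FPKM in Control and 178, 176 and 186 FPKM with K-3, and RPS15 had 223, 201 and 204 FPKM and 247, 230 and 251 FPKM. Neither overlapped between the groups, with log2 fold changes of 0.19 ± 0.05 and 0.21 ± 0.06 (adjusted p = 0.104 and 0.119).

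RPS6, the small subunit protein phosphorylated by the S6 kinases downstream of mTORC1, had 457, 387 and 401 FPKM in Control and 501, 467 and 451 FPKM with K-3. Control replicate 1 lay within the K-3 range. The log2 fold change was 0.19 ± 0.08 (SE; limma adjusted p = 0.227). An antisense gene, AL391834.2, covers 20.3% of the RPS6 messenger RNA. The sources used here do not say whether the libraries kept strand, so reads of the pair cannot be told apart. This limit is not confined to RPS6. Exons of other genes, on either strand, cover at least 10% of the messenger RNA in 15 members. Antisense cover was highest for RPL10, at 55.9%, and was 47.1% for RPL30 and 22.4% for RPS3A.

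At the low end of the range, RPS21 had 193, 164 and 162 FPKM in Control and 168, 176 and 178 FPKM with K-3. Control replicate 1 was the highest of all 6 libraries. Its log2 fold change was 0.02 ± 0.08, that of RPL34 0.02 ± 0.06 and that of RPL30, whose yeast counterpart regulates the splicing of its own transcript, 0.03 ± 0.06, all near the median of all tested genes.

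The genes mutated in Diamond-Blackfan anaemia, an inherited failure of red cell production, are mostly ribosomal protein genes. Of 18 such members, 17 were tested, and 0 passed the threshold in either direction. Their median log2 fold change was 0.14, with 16 positive and 1 negative value.

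The 45 tested members with a TOP start by the rule and the 20 matched members without one had medians close to each other. Their median log2 fold changes were 0.12 and 0.13, with positive values for 45 and 19 genes, and their median levels were 217 and 166 FPKM. The split rests on annotated starts, and whether these cells use them was not tested. In RPS26, printed above and counted as without a TOP start, a run of C and T begins shortly after the annotated G. The 15 tested genes of 16 listed from outside the ribosome whose messenger RNAs also carry the TOP motif, such as EEF1A1, PABPC1, NAP1L1 and EIF3L, had a median of 0.12 with 15 positive values, 0 past the threshold. NAP1L1, a histone chaperone, had the smallest p of that list (68.6 ± 2.4 and 76.9 ± 4.7 FPKM, SD, n = 3; log2 fold change 0.16, limma adjusted p = 0.162). FAU and RACK1, which encode ribosomal proteins under names outside the symbol rule, had 0.15 and 0.09, neither past the threshold.

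Among the genes that make and serve the ribosome, the medians stood nearer to that of all genes. These lists share genes with the TOP list above: EIF3L is also counted as an initiation factor and EEF1A1 as an elongation factor. Translation initiation factors (33 tested, 0 past the threshold) had a median log2 fold change of 0.03, elongation factors (9 tested, 0 past) 0.03 and RNA polymerase I subunits and factors (11 tested, 0 past), which transcribe ribosomal RNA, 0.03. Ribosome assembly factors (48 tested) had a median of 0.02. Of these 48, 1 was higher with K-3, where 1.17% of all tested genes were. It was RRS1, needed for large subunit assembly, at 6.39 ± 0.13 FPKM in Control and 7.55 ± 0.10 FPKM with K-3 (SD, n = 3). Its log2 fold change was 0.21 (limma adjusted p = 0.0442). With no minimum level, or with the replicate number as a block, no gene passed. Dedicated chaperones and importers of ribosomal proteins (10 tested, 0 past) had a median of 0.04, and regulators of TOP messenger RNAs and their upstream kinases (14 tested, 0 past) had -0.01. The 75 tested proteins of the mitochondrial ribosome, 0 of which passed, had 0.04, and the 13 genes encoded in mitochondrial DNA had -0.47, also with 0 past the threshold. Relative to their 6-library mean these 13 averaged 0.16, 0.21 and 0.21 in Control replicates 1 to 3 and 0.26, -0.16 and -0.69 in K-3 replicates 1 to 3. K-3 replicate 1 was thus above every Control library, and the low value was mainly that of K-3 replicate 3.

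The shift was not even over the libraries. Relative to the 6-library mean on the log2(FPKM + 1) scale, the 81 members averaged 0.04, -0.09 and -0.12 in Control replicates 1 to 3 and 0.05, 0.05 and 0.07 in K-3 replicates 1 to 3. Control replicate 1 thus stood nearer to the K-3 libraries than to the other Control libraries. The range over Control, 0.15, exceeded the difference between the group means, 0.12. The mean of the 6 tested paralogues differed in this, with Control replicate 1 beside the other Control libraries. They averaged -0.04, -0.06 and -0.06 in Control replicates 1 to 3 and 0.05, 0.03 and 0.09 in K-3 replicates 1 to 3. The single paralogues varied. Control replicate 1 was the highest Control library in RPL36AL, RPL7L1 and RPL26L1, the lowest in RPL39L and RPS27L, and between the others in RPL22L1. Control replicate 1 was the highest Control library for 77 of 81 members (95.1%), against 45.5% of all tested genes. Control replicates 2 and 3 both lay below every K-3 library for 75 members (92.6%), against 28.1% of all tested genes, while Control replicate 1 did so for 31. For members of at least 20 FPKM, the median coefficient of variation was 6.08% in Control and 3.18% with K-3.

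**Figure D4:**
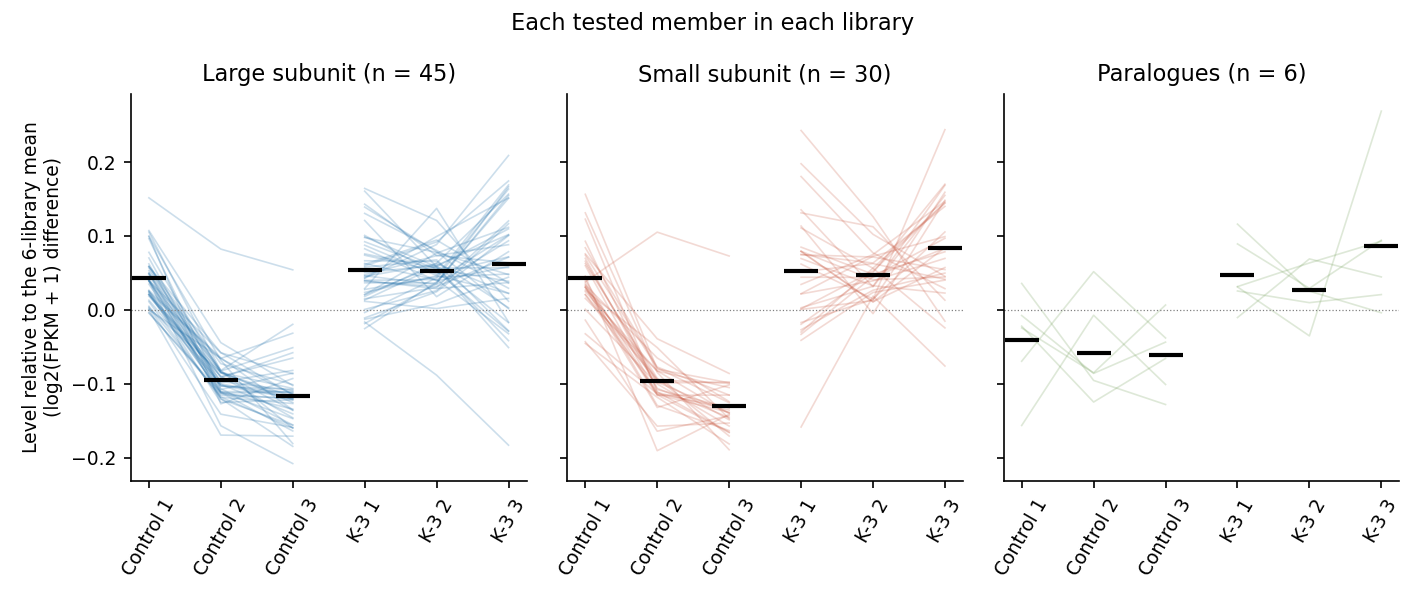
Level of each tested member in each library relative to its 6-library mean, in log2(FPKM + 1), for 45 large subunit genes, 30 small subunit genes and 6 paralogues; thin lines join the values of 1 gene and imply no order, and black bars are means over genes. In both subunits Control replicate 1 stands at 0.04, nearly level with the K-3 libraries, and Control replicates 2 and 3 stand between -0.09 and -0.13.

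Without Control replicate 1, 4 members passed the threshold as higher, among them RPL35, RPS15 and RPS26, where 1.99% of 12993 tested genes did, and the median of the members was 0.17. These are counts after leaving out 1 library and rest on 2 Control values. The count lower remained 0, where 3.39% of the tested genes were lower. Other fits also gave calls: limma voom on the recovered fragments called 3 members higher (RPS27A, RPS26 and RPS15), where 3.18% of all tested genes were, and limma with weights per library called 18, where 8.41% were.

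Differences between libraries of the same group ran with base composition. The GC content of the principal messenger RNA ranged from 42.1% to 63.6% over the 73 members of at least 20 FPKM, and the difference between K-3 replicates 1 and 3 ran against it, with Pearson's r = -0.59 and Spearman's rho = -0.58. The same pair of libraries gave r = -0.52 over 1899 protein-coding genes of at least 20 FPKM, so the gradient was not confined to ribosomal protein genes. Within Control, the members gave r = 0.30 for replicate 1 minus replicate 3, 0.29 for replicate 2 minus replicate 3 and 0.10 for replicate 1 minus replicate 2. For K-3 minus Control r was 0.21 over the members and 0.13 over the 1899 protein-coding genes. These correlations are across genes, which share their libraries, and are descriptions. RPS24 and RPS6, with 43.8% and 42.6% GC, were highest among the K-3 libraries in replicate 1, and RPS2 and RPL8, with 59.0% and 61.8%, in replicate 3.

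**Figure D5:**
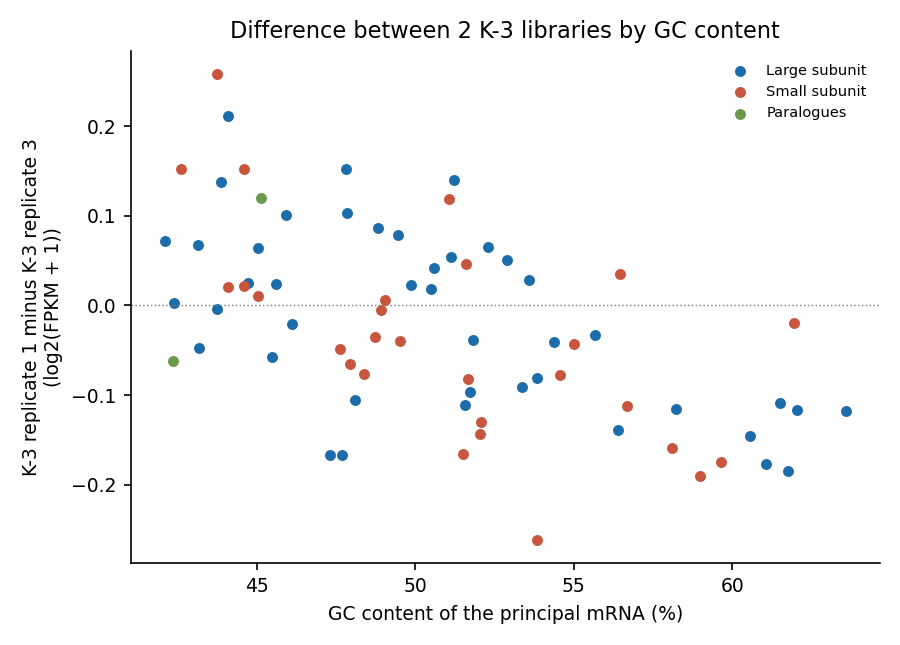
Difference in log2(FPKM + 1) between K-3 replicates 1 and 3 (y axis) by GC content of the principal messenger RNA in percent (x axis) for the 73 members of at least 20 FPKM, coloured by class. The differences fall with rising GC content (r = -0.59).

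Of the 77 main genes, 6 had a mean under 20 FPKM. One was RPS29, with its long annotated exons. The other 5, among them RPL26, RPL17, RPL36A and RPS10, each had over 50% of its messenger RNA inside another annotated gene on the same strand, for 3 of them a read-through gene that joins it to a neighbour; among the 71 main genes at 20 FPKM or more the highest such share was 41.5%. How fragments that fall on 2 genes were counted is not stated in the sources used here, so the levels of these 5 are uncertain. RPL26, which lines the exit tunnel, shared 59.0% with AC135178.2 and had 5.53 ± 0.64 FPKM in Control and 5.99 ± 0.39 FPKM with K-3 (SD, n = 3). RPS10, mutated in some Diamond-Blackfan families, shared 77.0% with RPS10-NUDT3 and had 0.338 ± 0.171 and 0.183 ± 0.057 FPKM. RPL36A shared 77.6% with RPL36A-HNRNPH2 and had 1.09 ± 0.31 and 0.604 ± 0.162 FPKM. Both were under the mean of 1 FPKM and were not tested.

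RPL17, also at the exit tunnel, belongs to this set and had the lowest fold change of the members. Its level was 4.73, 4.46 and 4.35 FPKM in Control and 4.10, 3.85 and 3.54 FPKM with K-3. All K-3 values lay below all Control values, with a log2 fold change of -0.19 ± 0.06 (SE; limma adjusted p = 0.12). The read-through gene RPL17-C18orf32 covers 91.0% of its messenger RNA. What the shared exons add to this value was not tested.

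RPL36AL, an intron-poor copy whose protein nearly equals that of RPL36A, was the highest of the 8 paralogues, with 91.1, 83.1 and 81.2 FPKM in Control and 90.8, 92.9 and 94.8 FPKM with K-3. The groups overlapped through Control replicate 1, and the log2 fold change was 0.13 ± 0.05 (SE; limma adjusted p = 0.238). RPL7L1 had 22.1 ± 0.6 FPKM in Control and 23.6 ± 1.1 FPKM with K-3 (SD, n = 3), RPL39L 8.04 ± 0.48 and 9.25 ± 1.16 FPKM, RPL22L1 5.60 ± 0.21 and 5.92 ± 0.19 FPKM, and RPS27L, a target of p53, 1.65 ± 0.12 and 1.72 ± 0.02 FPKM. RPL26L1 had 13.3, 12.3 and 12.8 FPKM in Control and 14.4, 13.8 and 14.5 FPKM with K-3. It was the paralogue with the smallest p, its groups did not overlap, and the log2 fold change was 0.14 ± 0.04 (adjusted p = 0.125).

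A pair of paralogues known for restricted expression were almost silent. RPL3L, found in heart and skeletal muscle, had 10 fragments over the 3 Control libraries and 8 over the K-3 libraries. RPL10L, known from the mouse testis, had 0 fragments in every library, which allows up to 3 fragments in each. RPL39L is also known from the mouse testis, and at 8.64 FPKM over the 6 libraries it was not silent here.

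The ratio of a paralogue to its main gene was tested for the 5 pairs in which both had a mean of at least 1 FPKM, and none of these 5 passed. RPL7L1 stood at 6.43% of the FPKM of RPL7 in Control and 6.58% with K-3, RPL22L1 at 11.3% and 11.7% of RPL22, RPL39L at 4.97% and 5.17% of RPL39, and RPS27L at 0.408% and 0.376% of RPS27. RPL26L1 stood at 233% and 238% of RPL26, whose own level is among the uncertain ones. These percentages rest on the gene lengths the authors used. Per kilobase of messenger RNA, RPL26L1 (21.8 over the 6 libraries) stood below RPL26 (24.7), and RPL22L1 (26.5) stood below RPL22 (113). RPL7L1, RPL39L and RPS27L were below their main genes on that scale as well. The log2 ratio on the log2(FPKM + 1) scale changed by 0.03 for RPL7L1, 0.04 for RPL22L1, 0.04 for RPL26L1, 0.03 for RPL39L and -0.13 for RPS27L. Exact two-sided permutation tests over the 6 libraries gave p from 0.3 to 0.8 for these 5 pairs, and 0.8 for each after Benjamini-Hochberg adjustment; 3 against 3 libraries cannot give a p under 0.1.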

How the data were processed

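Per the labels' protocols, poly-T beads selected messenger RNA for paired-end sequencing. The authors deposited FPKM values per gene and library; the submitters' processing notes list GRCh38, HISAT2 2.0.5, DESeq2 1.20.0 and featureCounts 1.5.0-p3. FPKM times gene length fell on whole multiples of 1 step per library (100% of values within 1e-06), which gave fragments per gene. The 518 rows of chromosome Y were left out; the other 58217 IDs and positions equal GENCODE release 29.

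Genes whose mean reached 1 FPKM were tested on log2(FPKM + 1) with limma 3.58.1 (eBayes with trend, R 4.3.3), two-sided, Benjamini-Hochberg over 12968 genes, threshold 0.05. The scripts were tested on simulated data. Overlaps used GENCODE 29 exons, and starts RefSeq's table. Members and lists were chosen with earlier results of these data known. Genes named are the 2 markers, the members with the smallest p, the most extreme fold changes and the highest levels, all members under 20 FPKM, the paralogue pairs, and up to 4 genes of each list by p. Alternatives were pseudocount, minimum, scaling, biotype, replicate block, voom, library weights, each library left out and a GC correction added after seeing the data. A few genes are not reported here.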

Additional observations from a re-analysis of the deposited data

How the results depend on the processing

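With the fit as reported, 152 genes were higher and 118 lower with K-3. These counts were 0 and 0 with no minimum level and 402 and 285 among protein-coding genes only. They were 412 and 398 with limma voom and 1091 and 963 with library weights. After the GC correction, which was chosen after seeing the data, they were 431 and 481 of 11165 tested genes. With a minimum mean of 5 FPKM, 237 were higher. Leaving out each library in turn gave 0 to 275 higher and 0 to 440 lower. The cause was not tested. The count of ribosomal protein genes called higher was 0 as reported, 3 with voom, 18 with library weights, 1 with the GC correction, which also called 1 lower (RPL17), and 0 to 4 with each library left out. Their median log2 fold changes stayed positive, from 0.08 to 0.17 for the large subunit and from 0.09 to 0.18 for the small subunit with each library left out.

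Deviations from the group means of same-numbered libraries correlated at -0.36, -0.03 and -0.11. With 3 libraries per group, these values cannot show whether the replicate numbers pair the libraries. With the replicate number as a block, 0 genes were higher and 0 lower, and 0 members passed in either direction (smallest adjusted p of a member 0.188).

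Signs turned for members near 0, and the cause was not tested. Scaled without mitochondrial-encoded genes, RPS21 was at -0.017, RPL34 at -0.013 and RPL30 at -0.0055; without ribosomal protein genes as well, RPS21 was at -0.0063 and RPL34 at -0.0021; after the GC correction RPS21 was at -0.014. With each library left out, RPS21 ran from -0.031 to 0.097, RPL34 from -0.017 to 0.077, RPL30 from -0.018 to 0.087 and RPL22 from -0.00046 to 0.067. The log2 ratio of RPL26L1 to RPL26 ran from -0.0084 to 0.11 and that of RPL39L to RPL39 from -0.096 to 0.095. Members of at least 20 FPKM had at least 2179 fragments in every library. Whether the spread between libraries exceeded counting error was not tested for each of them.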

Other observations

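Pseudogenes of the ribosomal protein genes, mostly intronless copies, are scattered over the genome, and reads of a main gene and its copies can be split between them. The table holds 1142 pseudogenes named after members, of which 638 had no fragment in any library and 67 had a mean of at least 1 FPKM. Of these 67, 7 were higher with K-3 and 0 lower (limma, adjusted p under 0.05), against 1.17% and 0.910% of all tested genes, while 0 of the 81 members passed. RPL39P3 on chromosome 6 (73373108 to 73373263, minus strand, GRCh38) had 172, 152 and 159 FPKM in Control and 248, 238 and 258 FPKM with K-3. The K-3 values lay well above Control, with a log2 fold change of 0.62 (adjusted p = 0.0169), beside 0.15 for RPL39. As a share of RPL39, it stood at 98.0%, 95.9% and 103% in Control and 132%, 132% and 151% with K-3.

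The other 6 were RPL24P4 (log2 fold change 0.31), RPL41P1 (0.43), RPS27AP16 (0.46), RPL10P9 (0.32), RPL26P19 (0.39) and RPL37AP1 (0.46), with adjusted p from 0.0268 to 0.0456. Their main genes had log2 fold changes from 0.08 to 0.23; since the 7 are those that passed the threshold, this says nothing of pseudogenes in general. Over all 67 tested pseudogenes the median was 0.10, with 51 positive and 16 negative values, beside 0.12 for the members. Of the 7, only RPL39P3 lies within the span of another annotated gene. The sources used here do not give how reads that match several places were assigned, and the part of read assignment in these values was not tested.

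A pair of pseudogenes, chosen after their values were seen, stood above their main genes. RPS28P7 had a mean of 1382 FPKM over its 210 annotated bases, against 51.0 FPKM for RPS28 over 2119 bases, and RPL9P9 had 450 FPKM over 717 bases, against 130 FPKM for RPL9 over 5022 bases. In fragments, the pseudogenes of RPS28 together held 269% of the count of RPS28, and those of RPL9 held 51.9%. Of the 85 members, 13 shared at least 50% of the 75-base windows of their messenger RNA with a pseudogene or another member, and 17 shared none. RPS28P7 had a log2 fold change of 0.21 and RPL9P9 of 0.06, neither past the threshold.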
